A study of Mus musculus with 12 samples.

Results

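Transcript levels of 9 genes of the cytotoxic granule pathway were followed in 12 RNA libraries made from cultures and tumors of HM1, an ovarian cancer line of the mouse. The genes were the granzymes Gzma, Gzmb, Gzmc and Gzmk, the perforin gene Prf1, the granule membrane gene Nkg7, the death ligand gene Fasl, the cysteine protease gene Ctsw and the granule proteoglycan gene Srgn. They were selected by name, with their levels and their knockdown change in these tumors already known, so that change is given below as a description, and a count of calls among them is not evidence about them. Each of the 9 names matched 1 row of every table, among 55878 genes listed for tumors and 56061 for cultures.

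The 4 groups, with 3 libraries each, were tumors of HM1 cells with a short hairpin RNA against ST3GAL3 (shST3GAL3, called knockdown tumors here), tumors of HM1 cells with a control hairpin (shControl, control tumors), cultured HM1-shST3GAL3 cells (knockdown cultures) and cultured HM1-shControl cells (control cultures). The labels call the genotype of the knockdown groups ST3GAL3 knockdown and that of the control groups wild type. Host strain, age, tumor site, time of growth and the clonality of the hairpin lines are not given in the sources used here. St3gal3, the targeted sialyltransferase gene, was at 7.28, 5.87 and 5.76 TPM in knockdown tumors and at 14.00, 15.39 and 15.36 TPM in control tumors. In cultures it was at 1.52, 1.25 and 1.83 TPM with the knockdown hairpin and at 9.59, 12.52 and 12.93 TPM with the control hairpin, so its groups did not overlap in either tissue.

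TPM is a share of a library's transcripts corrected for gene length, so levels of different genes can be set side by side. It keeps no record of depth, and the depth of the libraries is therefore unknown. Nothing in the labels tells whether the 3 samples of a group were separate cultures or animals, and p-values therefore measure only how far these samples spread, which may be technical.

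Cytotoxic T cells and natural killer (NK) cells store perforin and granzymes in secretory granules and release them at the contact with a target cell. Perforin opens pores in the target membrane, and granzymes, which are serine proteases, enter through them and cleave proteins of the target, which leads to its death. A separate route uses Fas ligand on the killer cell and the receptor Fas on the target. In the mouse, Gzmb, Gzmc and several further granzyme genes lie side by side with mast cell protease genes on chromosome 14, whereas Gzma and Gzmk lie on chromosome 13.

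The sequences just upstream of the genes that the tumor results turn on are shown first, to let them be read beside their levels. RefSeq promoter windows of build GRCm38.p6 were found for 8 of the 9 genes, with 2 windows for Srgn, and the 250 bases before each start were used. Capitals mark matches to short motifs searched on both strands: TGTGGT (RUNX), GGTGTGA (T-box), TTCNNNGAA (GAS), GAAANNGAA (ISRE core) and TGANTCA (AP-1). Overlapping matches of different motifs would merge in the capitals, and none did in the 4 windows printed. The windows are Gzma at chr13:113100982-113101231 on the minus strand, Gzmb at chr14:56262335-56262584 on the minus strand, Gzmc at chr14:56234658-56234907 on the minus strand and Prf1 at chr10:61297586-61297835 on the plus strand, each read 5′ to 3′ in the direction of its gene.
Gzma: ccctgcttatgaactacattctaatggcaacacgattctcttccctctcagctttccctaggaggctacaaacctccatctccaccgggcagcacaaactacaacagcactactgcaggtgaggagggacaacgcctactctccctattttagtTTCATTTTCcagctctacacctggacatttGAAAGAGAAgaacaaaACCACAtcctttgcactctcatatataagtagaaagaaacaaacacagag
Gzmb: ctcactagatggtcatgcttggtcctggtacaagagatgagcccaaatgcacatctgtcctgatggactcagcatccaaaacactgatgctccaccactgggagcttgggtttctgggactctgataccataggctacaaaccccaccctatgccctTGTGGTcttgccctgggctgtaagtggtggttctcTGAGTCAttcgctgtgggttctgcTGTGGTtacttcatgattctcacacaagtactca
Gzmc: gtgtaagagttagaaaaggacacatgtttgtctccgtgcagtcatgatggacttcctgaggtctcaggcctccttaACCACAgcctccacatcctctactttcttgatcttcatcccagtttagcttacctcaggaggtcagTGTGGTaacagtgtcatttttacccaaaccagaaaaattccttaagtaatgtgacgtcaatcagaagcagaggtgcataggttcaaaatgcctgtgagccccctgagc
Prf1: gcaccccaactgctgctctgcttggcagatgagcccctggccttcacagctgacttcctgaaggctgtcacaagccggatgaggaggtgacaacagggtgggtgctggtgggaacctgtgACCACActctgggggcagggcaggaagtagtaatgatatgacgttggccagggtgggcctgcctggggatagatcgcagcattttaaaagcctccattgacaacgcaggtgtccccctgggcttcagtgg

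The RUNX motif was present in the windows of 6 of the 8 genes, namely Gzma, Gzmb, Gzmc, Prf1, Nkg7 and Srgn, and in 14.0% of all 32851 windows of the table. Gzma held 2 matches to the ISRE core, at -96 and -66 from the start, and Srgn held 1, against 7.13% of all windows with a match. The AP-1 motif occurred in Gzmb alone among the 8, at -58, and in 6.75% of all windows. The T-box motif occurred in Gzmk and Nkg7 (3.33% of all windows) and the GAS motif in Nkg7 (7.02%). The Fasl window held no match to these motifs. A match describes the letters of a window and is not a binding site.

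In tumors, Srgn, which encodes the proteoglycan serglycin that packs granule contents in many blood cell types, had the highest level of the 9, and Fasl the lowest. In knockdown tumors the order by mean was Srgn, Gzmc, Gzmb, Prf1, Nkg7, Gzma, Ctsw, Gzmk and Fasl. The neighbours Prf1 and Nkg7, and Gzmk and Fasl, had overlapping ranges there, and the other neighbours did not. Control tumors had the same order except that Ctsw stood above Gzma. In control tumors the ranges of neighbours overlapped from Nkg7 downward, although the order Nkg7, Ctsw, Gzma, Gzmk and Fasl was the same inside each of the 3.

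**Figure D1:**
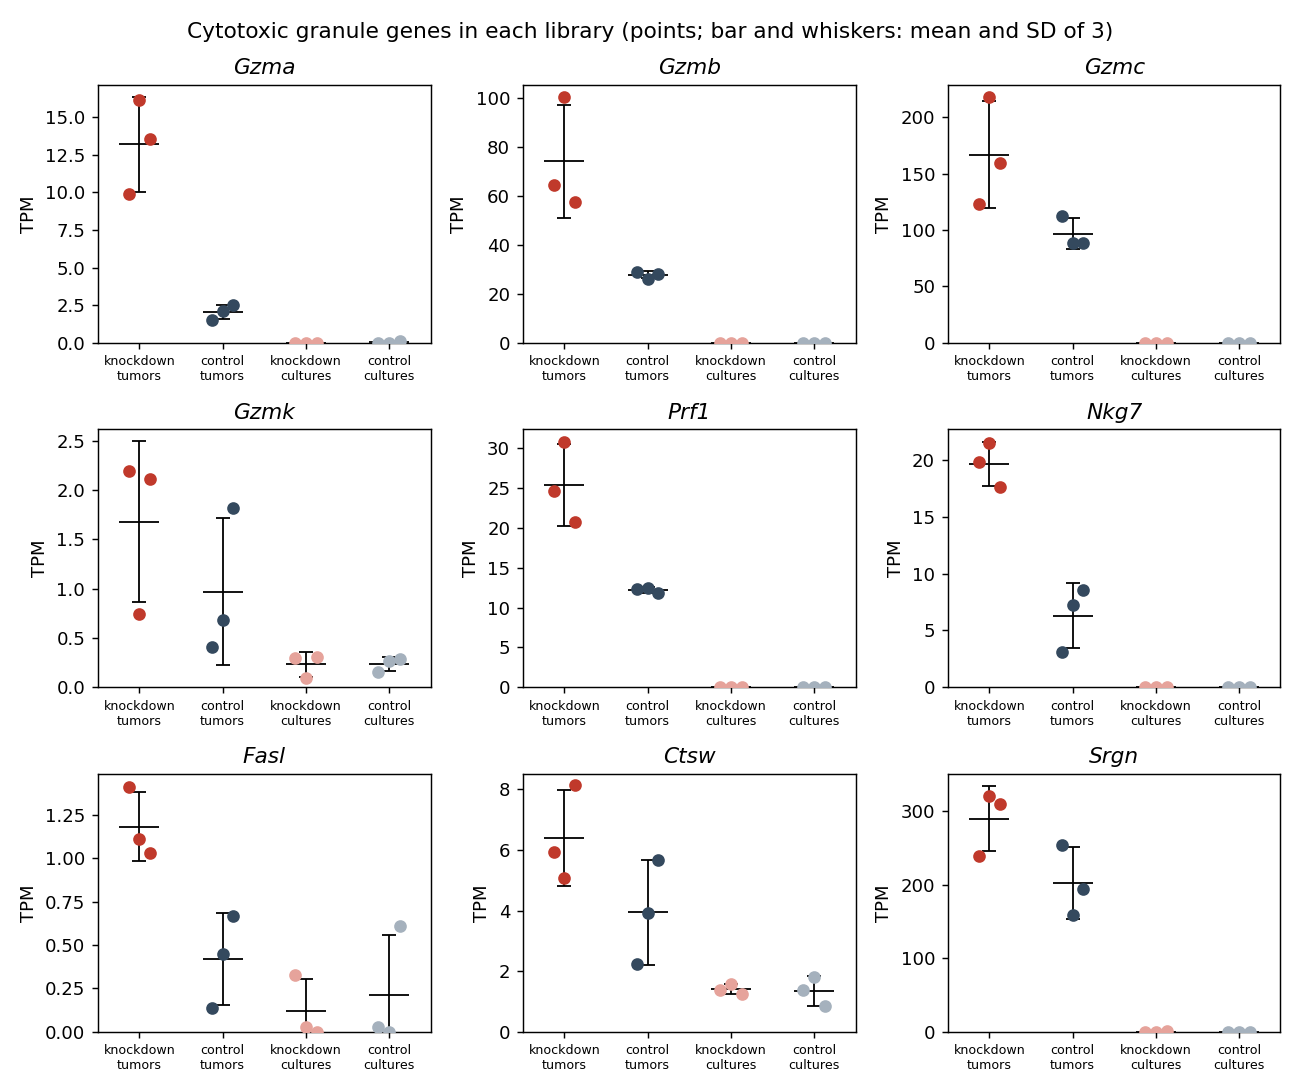
TPM of the 9 granule genes in each of 12 libraries (points), with the mean and SD of 3 libraries (bar and whiskers), in knockdown tumors, control tumors, knockdown cultures and control cultures. For Gzma, Gzmb, Gzmc, Prf1, Nkg7 and Fasl every knockdown tumor lies above every control tumor, and in cultures 8 of the 9 genes lie below 1 TPM.

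Gzma encodes granzyme A, a tryptase-like granule protease. It was at 9.89, 16.13 and 13.51 TPM in knockdown tumors 1, 2 and 3 and at 1.53, 2.08 and 2.48 TPM in control tumors 1, 2 and 3. The groups did not overlap, and the lowest knockdown tumor was several times the highest control tumor. The means were 13.2 ± 3.13 TPM in knockdown tumors and 2.03 ± 0.477 TPM in control tumors (SD, n = 3 each), a ratio of 6.49 and a log2 change of 2.21 (SE 0.196), on the log2(TPM + 1) scale used for all log2 changes of single genes. In these bulk samples, more cells of a type and more RNA per cell cannot be told apart, and the same holds for fewer cells and less RNA.

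Gzmb encodes granzyme B, which cleaves after aspartate and activates caspases in the target cell. It was at 64.23, 100.19 and 57.62 TPM in knockdown tumors and at 28.93, 26.15 and 27.96 TPM in control tumors. Control tumors were close together, knockdown tumor 2 stood above the other two, and the groups did not overlap. The means were 74.0 ± 22.9 TPM in knockdown tumors and 27.7 ± 1.41 TPM in control tumors (SD, n = 3 each), with a log2 change of 1.35 (SE 0.200).

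Gzmc encodes granzyme C, which is found in rodents and is known from strongly activated mouse killer cells. It was at 123.42, 217.68 and 159.05 TPM in knockdown tumors and at 112.63, 88.85 and 88.62 TPM in control tumors. Knockdown tumor 1 was only slightly above control tumor 1, and the groups did not overlap. Its log2 change was 0.75 (SE 0.219), which was the median of the 9 genes.

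Gzmk encodes granzyme K, a tryptase-like protease of certain T cells, and lies beside Gzma in the genome. It was at 2.19, 0.74 and 2.11 TPM in knockdown tumors and at 0.41, 0.68 and 1.82 TPM in control tumors. Knockdown tumor 2, the highest of the 6 for Gzma, Gzmb and Gzmc, was the lowest knockdown tumor for Gzmk, and the groups overlapped. The log2 change was 0.46 (SE 0.341).

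Prf1 encodes perforin, the pore-forming protein that lets granzymes into the target. It was at 24.61, 30.83 and 20.74 TPM in knockdown tumors and at 12.29, 12.48 and 11.85 TPM in control tumors. The 3 control tumors lay within 1 TPM of each other, and the groups did not overlap. The means were 25.4 ± 5.09 TPM in knockdown tumors and 12.2 ± 0.323 TPM in control tumors (SD, n = 3 each), a ratio of 2.08 and a log2 change of 0.98 (SE 0.138).

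Nkg7 encodes a membrane protein of killer-cell granules that takes part in their release. It was at 19.80, 21.54 and 17.64 TPM in knockdown tumors and at 3.07, 7.24 and 8.55 TPM in control tumors. Control tumor 1 was the lowest, and the groups did not overlap. The log2 change was 1.59 (SE 0.324), with means of 19.7 ± 1.95 TPM in knockdown tumors and 6.29 ± 2.86 TPM in control tumors (SD, n = 3 each).

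Fasl encodes Fas ligand, the surface protein of the granule-independent route. It was at 1.41, 1.11 and 1.03 TPM in knockdown tumors and at 0.14, 0.45 and 0.67 TPM in control tumors. The groups did not overlap, although all 6 values were low, and the log2 change was 0.63 (SE 0.212).

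Ctsw encodes cathepsin W, a cysteine protease of T cells and NK cells that is not needed for killing in the mouse. It was at 5.94, 5.08 and 8.14 TPM in knockdown tumors and at 2.22, 3.92 and 5.67 TPM in control tumors. Control tumor 3 was above knockdown tumor 2, so the groups overlapped, and the log2 change was 0.62 (SE 0.284).

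Srgn was at 239.63, 321.06 and 309.39 TPM in knockdown tumors and at 254.36, 158.28 and 193.92 TPM in control tumors. Control tumor 1 was above knockdown tumor 1, so the groups overlapped, and the log2 change was 0.53 (SE 0.198).

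All 9 genes passed the filter, which asks for a mean TPM of 1 or more in a tumor group, but Gzmk and Fasl did so only through the knockdown tumors, since their control means were 0.970 and 0.420 TPM. The log2 changes of the 9 genes were all positive, with a median of 0.75, where the median of all 14915 genes tested was -0.05. By limma with an adjusted p under 0.05, 1.07% of all genes were called higher and 0.436% lower in knockdown tumors, and 3 of the 9, Gzma, Gzmb and Prf1, were among those higher. Of all genes tested, 9.81% had every knockdown tumor above every control tumor, as did 6 of the 9. Because the genes were selected on this contrast, these counts describe the selection. The count of 3 was 1, Gzma, without knockdown tumor 1, control tumor 2 or control tumor 3. Without control tumor 1 it stayed at 3, but with Nkg7 in place of Gzmb. Over the 6 omissions of 1 library, Gzma was called in 6, Prf1 in 3 and Gzmb in 2. With any 1 library left out, the log2 change was 2.06 to 2.39 for Gzma, 1.11 to 1.50 for Gzmb and 0.84 to 1.11 for Prf1.

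The tumors did not differ from each other by 1 common factor over the 9 genes. Knockdown tumor 2 was the highest knockdown tumor for 6 of them, Gzma, Gzmb, Gzmc, Prf1, Nkg7 and Srgn, and the lowest for Gzmk and Ctsw. Knockdown tumor 3 was the lowest for Gzmb, Prf1, Nkg7 and Fasl and the highest for Ctsw. Among control tumors, tumor 1 was the lowest for Gzma, Gzmk, Nkg7, Fasl and Ctsw and the highest for Gzmb, Gzmc and Srgn, and tumor 3 was the highest for the same 5 genes in which tumor 1 was the lowest.

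**Figure D2:**
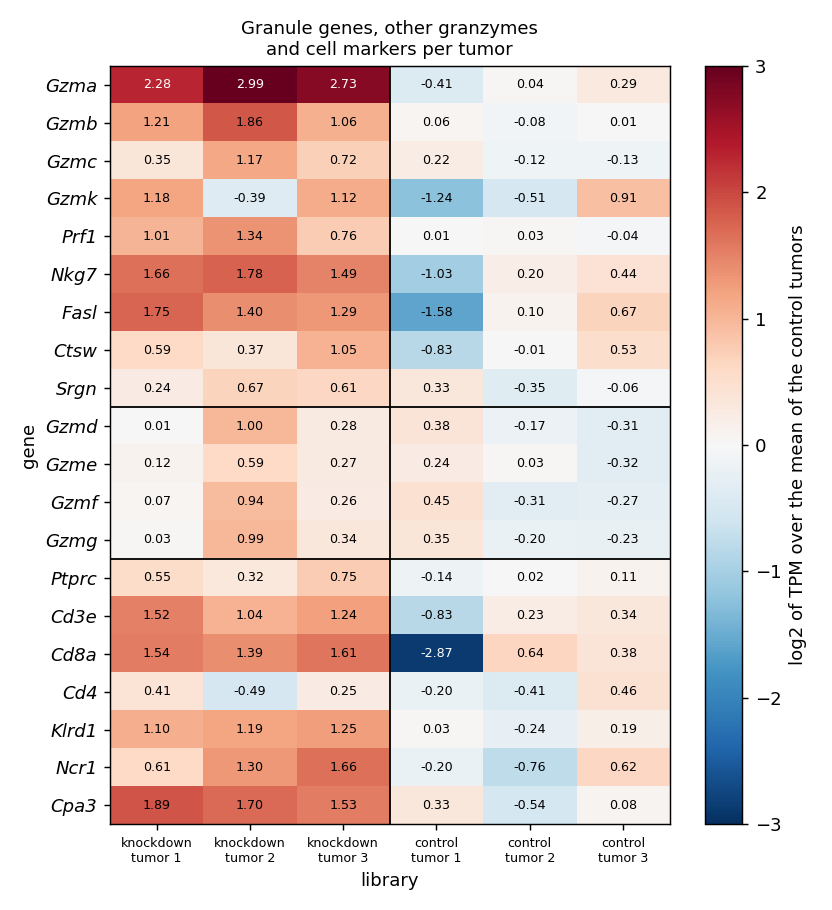
Log2 of TPM over the mean of the control tumors, for the 9 granule genes (top block), the other granzymes above 1 TPM (middle block) and cell markers (bottom block), in 3 knockdown tumors (left) and 3 control tumors (right). Gzma is the only row above 2 in all 3 knockdown tumors, and control tumor 1 is low for Nkg7, Fasl, Cd3e and Cd8a.

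Of the other granzymes, which were listed whole, Gzmd, Gzme, Gzmf and Gzmg were as abundant as Gzmc and 0 of these 4 were called by limma in tumors (0 at an unadjusted p under 0.05). Gzmd was at 127.73, 254.41 and 153.88 TPM in knockdown tumors and at 165.07, 112.88 and 102.36 TPM in control tumors (log2 change 0.46, SE 0.317, limma adjusted p = 0.483). Gzmg was at 127.78, 247.70 and 157.55 TPM in knockdown tumors and at 159.56, 108.61 and 106.56 TPM in control tumors (0.47, SE 0.294, limma adjusted p = 0.437). In both genes control tumor 1 was above knockdown tumors 1 and 3, so the groups overlapped.

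Gzme was at 105.72, 146.94 and 117.68 TPM in knockdown tumors and at 114.79, 99.50 and 78.12 TPM in control tumors (log2 change 0.34, SE 0.173, limma adjusted p = 0.339). Gzmf was at 99.16, 181.49 and 113.21 TPM in knockdown tumors and at 129.54, 76.26 and 78.37 TPM in control tumors (0.46, SE 0.315, limma adjusted p = 0.479). Both had overlapping groups with knockdown tumor 2 the highest. Gzmm and Gzmn stayed below 1 TPM in all 6 tumors and were not tested.

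These 4 genes are near copies, which bears on how reads are shared among them. Over the longest reading frames of their GENCODE M21 transcripts, Gzmd and Gzme were 93.3% identical, Gzme and Gzmg 89.6%, and Gzmd and Gzmf, the least alike of the 4, 83.4%. Gzmc was 71.2 to 73.5% identical to the 4 and 76.0% to Gzmb, and Gzma and Gzmk were 56.1% identical to each other. The split of reads among Gzmd, Gzme, Gzmf and Gzmg is therefore uncertain, and their summed level is the safer value. Together they reached 460.4, 830.5 and 542.3 TPM in knockdown tumors and 569.0, 397.2 and 365.4 TPM in control tumors.

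The 10 granzymes summed to 660.6, 1166 and 774.9 TPM in knockdown tumors and to 712.9, 515.9 and 486.7 TPM in control tumors, with overlapping groups. Gzmc to Gzmg held most of that sum, at 88.4, 89.9 and 90.5% in knockdown tumors and 95.6, 94.2 and 93.3% in control tumors. The share of Gzmb was 9.72, 8.60 and 7.44% in knockdown tumors and 4.06, 5.07 and 5.75% in control tumors. Gzma and Gzmk together took 1.83, 1.45 and 2.02% in knockdown tumors and 0.272, 0.535 and 0.884% in control tumors. None of these 3 shares overlapped between the groups, so the granzyme transcripts of knockdown tumors held relatively more Gzmb and more of the Gzma and Gzmk pair, and less of the Gzmc to Gzmg group. As parts of 1 total the shares depend on each other, and the lower share of Gzmc to Gzmg is not a separate result. The total also holds Gzme, which HM1 cells expressed in culture (means of 31.7 TPM in knockdown and 30.1 TPM in control cultures).

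**Figure D3:**
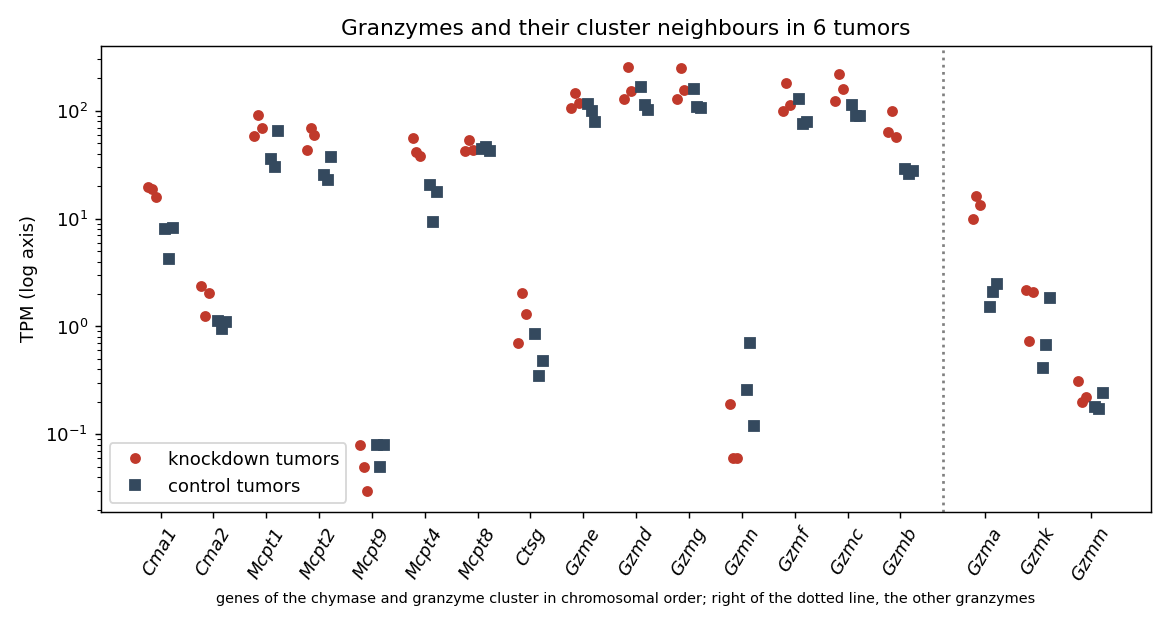
TPM on a log axis of the genes of the chymase and granzyme cluster in their order on chromosome 14, with Gzma, Gzmk and Gzmm on the right, in 3 knockdown tumors (circles) and 3 control tumors (squares). Gzmb and Gzmc, at one end of the cluster, have separate groups, while those of Gzme, Gzmd, Gzmg and Gzmf overlap, and Cma1, Cma2, Mcpt2 and Mcpt4, towards the other end, have separate groups. Of all genes tested, 9.81% had every knockdown tumor above every control tumor.

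Gzmb sits at the end of the chromosome 14 cluster, next to Gzmc and then Gzmf. Towards its other end are Cma1, the mast cell chymase gene, Cma2, the Mcpt genes and Ctsg. Of 7 such neighbours tested, 1, Cma1, was called higher by limma (1.07% of all genes tested). In 4 every knockdown tumor was above every control tumor (9.81% of all genes tested), and 4 had an unadjusted limma p under 0.05 (18.7%). All 7 changes were positive, with a median log2 change of 0.79. Ctsg passed the filter only through the knockdown tumors and is not among those with separate groups. Cma1 was at 19.70, 18.68 and 15.88 TPM in knockdown tumors and 7.96, 4.20 and 8.15 TPM in control tumors (log2 change 1.34, SE 0.228, limma adjusted p = 0.0494). That call was kept only with control tumor 2 left out, and the other 5 omissions gave log2 changes of 1.28 to 1.48. Mcpt8, a basophil protease gene in the middle of the cluster, was at 42.17, 53.68 and 43.75 TPM in knockdown tumors and 44.28, 45.95 and 42.73 TPM in control tumors. It was as abundant in cultures, at 52.71, 55.11 and 54.96 TPM with the knockdown and 50.77, 48.97 and 53.23 TPM with the control hairpin, where no host cells were present.

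To set the granule genes against the leukocyte content of each tumor, they were divided by Ptprc, which encodes the pan-leukocyte protein CD45. Ptprc itself was at 27.86, 23.74 and 32.03 TPM in knockdown tumors and 17.25, 19.32 and 20.59 TPM in control tumors. The ratio of Gzma to Ptprc was 0.355, 0.679 and 0.422 in knockdown tumors and 0.0887, 0.108 and 0.120 in control tumors, a ratio of means of 4.60. Gzmb to Ptprc was 2.31, 4.22 and 1.80 in knockdown tumors and 1.68, 1.35 and 1.36 in control tumors, and Nkg7 to Ptprc had a ratio of means of 2.24. The groups did not overlap for these 3 genes and overlapped for the other 6. The share of all genes with separate ratios to Ptprc was not computed, so this count is not read as a result about the granule genes.

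Against lymphocyte genes fewer of the 9 stood apart. Per Cd3e, a subunit of the T cell receptor complex, Gzma was at 1.64, 3.73 and 2.72 in knockdown tumors and 1.30, 0.842 and 0.932 in control tumors. Nkg7 per Cd3e was at 3.28, 4.97 and 3.56 in knockdown tumors and 2.60, 2.93 and 3.21 in control tumors, and the other 7 overlapped. Per Klrd1, the gene of the NK and T cell receptor subunit CD94, Gzma was at 1.33, 2.04 and 1.64 in knockdown tumors and 0.432, 0.710 and 0.628 in control tumors, Srgn was lower in every knockdown tumor, and the other 7 overlapped. Of the 9, Gzma alone had ratios to Ptprc, Cd3e and Klrd1 that were higher in every knockdown tumor than in every control tumor. These ratios come from the contrast that chose the genes and carry no test. How many genes outside the set have such ratios was not computed, so they are only described.

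Within the set, Gzma per Prf1 was 0.402, 0.523 and 0.651 in knockdown tumors and 0.124, 0.167 and 0.209 in control tumors. Gzmb per Prf1 was 2.61, 3.25 and 2.78 in knockdown tumors and 2.35, 2.10 and 2.36 in control tumors. Gzmc per Gzmb was 1.92, 2.17 and 2.76 in knockdown tumors and 3.89, 3.40 and 3.17 in control tumors. None of these 3 ratios overlapped between the groups, but they are only part of the ratios within the set. Per Prf1 the ratios of 6 genes overlapped, and per Gzmb those of 4 genes did. Shares over all genes were not computed for these ratios either.

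Markers of cells that carry these granules, or that could carry their transcripts, were measured in the same tumors. Over all 14915 genes tested in tumors, 1.51% were called in either direction and 18.7% had an unadjusted p under 0.05. A share of 9.81% was separate and higher, with every knockdown tumor above every control tumor. Of 13 T cell markers tested (of 15), 0 were called by limma and 8 had an unadjusted p under 0.05. Their median log2 change was 0.78, 7 were separate and higher, and their sum was 185.4 to 195.4 TPM in knockdown tumors and 105.2 to 164.3 TPM in control tumors. Most of that sum was Thy1, whose groups overlapped, at 112.34 to 129.45 TPM in knockdown tumors and 83.41 to 117.39 TPM in control tumors. Cd3e was at 6.03, 4.33 and 4.96 TPM in knockdown tumors and 1.18, 2.47 and 2.66 TPM in control tumors (log2 change 1.00, SE 0.223, limma adjusted p = 0.0853). Cd8a, the marker of cytotoxic T cells, was at 5.12, 4.62 and 5.38 TPM in knockdown tumors and 0.24, 2.75 and 2.29 TPM in control tumors, and Cd4 at 6.53, 3.49 and 5.85 TPM in knockdown tumors and 4.29, 3.70 and 6.76 TPM in control tumors. Cd8a was separate between the groups and Cd4 was not.

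Of 14 NK cell markers tested (of 19), 1 was called higher, Klrd1, at 7.44, 7.91 and 8.25 TPM in knockdown tumors and 3.54, 2.93 and 3.95 TPM in control tumors (log2 change 0.99, SE 0.120, limma adjusted p = 0.0152). Klrd1 was not called without knockdown tumor 1 (1.03) or 2 (0.99). The NK list had a median of 0.79 and 8 separate and higher markers, where 9.81% of all genes tested were separate and higher. However, Klra3, Klra7, Klrb1c and Klre1 passed the filter only through the knockdown tumors, and 3 of these 4 are among the 8. The sum of the list was 59.55 to 70.91 TPM in knockdown tumors and 22.34 to 41.01 TPM in control tumors. Ncr1, the most NK-restricted marker of the list, was at 1.70, 2.76 and 3.53 TPM in knockdown tumors and 0.97, 0.66 and 1.72 TPM in control tumors, with overlapping groups. Eomes, a transcription factor of killer cells, was at 10.44 to 13.64 TPM in knockdown cultures and 11.18 to 12.87 TPM in control cultures, where no host cells were present.

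Of 9 mast cell markers tested (of 10), 5 were called higher, Cma1, Cpa3, Fcer1a, Tpsab1 and Tpsb2, with a list median of 1.25 and sums of 158.6 to 202.4 TPM in knockdown tumors and 55.73 to 89.52 TPM in control tumors. The change was positive for 7 of the 9. Kit (log2 change -0.26, SE 0.200) and Gata2 (-0.27, SE 0.192) went the other way, with overlapping groups. Cpa3, the mast cell carboxypeptidase gene, was at 16.41, 14.40 and 12.82 TPM in knockdown tumors and 5.56, 3.05 and 4.67 TPM in control tumors. Without knockdown tumor 1, or without knockdown tumor 2, none of the 5 was called, although their log2 changes stayed between 1.10 and 1.54, and without control tumor 1 or 3 the count was 3. Macrophage markers summed to 1648 to 2124 TPM in knockdown tumors and 1554 to 2120 TPM in control tumors, with 1 of 14 called higher, Ly6c2, which was not called without control tumor 2 (log2 change 1.78) or knockdown tumor 1 (1.72). Of 2 plasmacytoid dendritic cell markers tested, a cell type that also carries Gzmb, 0 were called by limma (0 at an unadjusted p under 0.05), with sums over 6 markers of 15.42 to 22.81 TPM in knockdown tumors and 16.08 to 20.85 TPM in control tumors. None of the defining markers Cd3e, Cd8a, Klrd1, Ncr1 and Cpa3 was at 0 in any tumor. The part of these cell types in the levels of the granule genes was not tested.

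Skeletal muscle transcripts also varied between tumors, although the summed levels of the groups overlapped. The sum of 12 muscle markers was 103.2, 15.97 and 79.36 TPM in knockdown tumors 1, 2 and 3 and 3.49, 16.95 and 4.65 TPM in control tumors, and 0 of 10 tested were called by limma (6 at an unadjusted p under 0.05), of which 7 passed the filter only through the knockdown tumors. With knockdown tumors 1 and 3 left out, the log2 changes were 2.51 for Gzma, 1.82 for Gzmb, 1.17 for Gzmc, 1.27 for Prf1, 1.72 for Nkg7 and 0.69 for Srgn, each larger than with all 6 tumors. Those of Fasl (0.59) and Ctsw (0.36) were smaller, and Gzmk did not pass the filter. In that fit the 1 remaining knockdown tumor is assumed to vary as the control tumors do. That tumor, knockdown tumor 2, was the highest knockdown tumor for Gzma, Gzmb, Gzmc, Prf1, Nkg7 and Srgn. Their larger changes follow from that alone, and no conclusion on muscle content is drawn from this fit. Epithelial markers of HM1 cells summed to 2562 to 2829 TPM in knockdown tumors and 3230 to 3436 TPM in control tumors, with 0 of 5 called (4 at an unadjusted p under 0.05). Of 6 endothelial markers limma called 0 (4 at an unadjusted p under 0.05), with a median log2 change of -0.47 and sums of 41.55 to 62.05 TPM in knockdown tumors and 61.22 to 89.48 TPM in control tumors. Of 7 fibroblast markers 1, Fap, was called lower, with a list median of -0.53 and sums of 710.3 to 1098 TPM in knockdown tumors and 1090 to 1477 TPM in control tumors, and Fap was not called without knockdown tumor 1 (-0.84), control tumor 2 (-0.89) or control tumor 3 (-0.86). Of 8 neutrophil markers 1, Mmp9, was called lower, a call lost whichever library was omitted (log2 changes of -0.88 to -0.62). The list median was 0.005, and Mmp9 was the only marker of the 8 with separate groups. The sums of the list were 428.1 to 553.8 TPM in knockdown tumors and 630.6 to 848.6 TPM in control tumors. Much of these sums was Mmp9 itself, at 228.58 to 328.35 TPM in knockdown tumors and 456.57 to 508.41 TPM in control tumors. The part of these cells in the levels of the granule genes was not tested either.

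**Figure D4:**
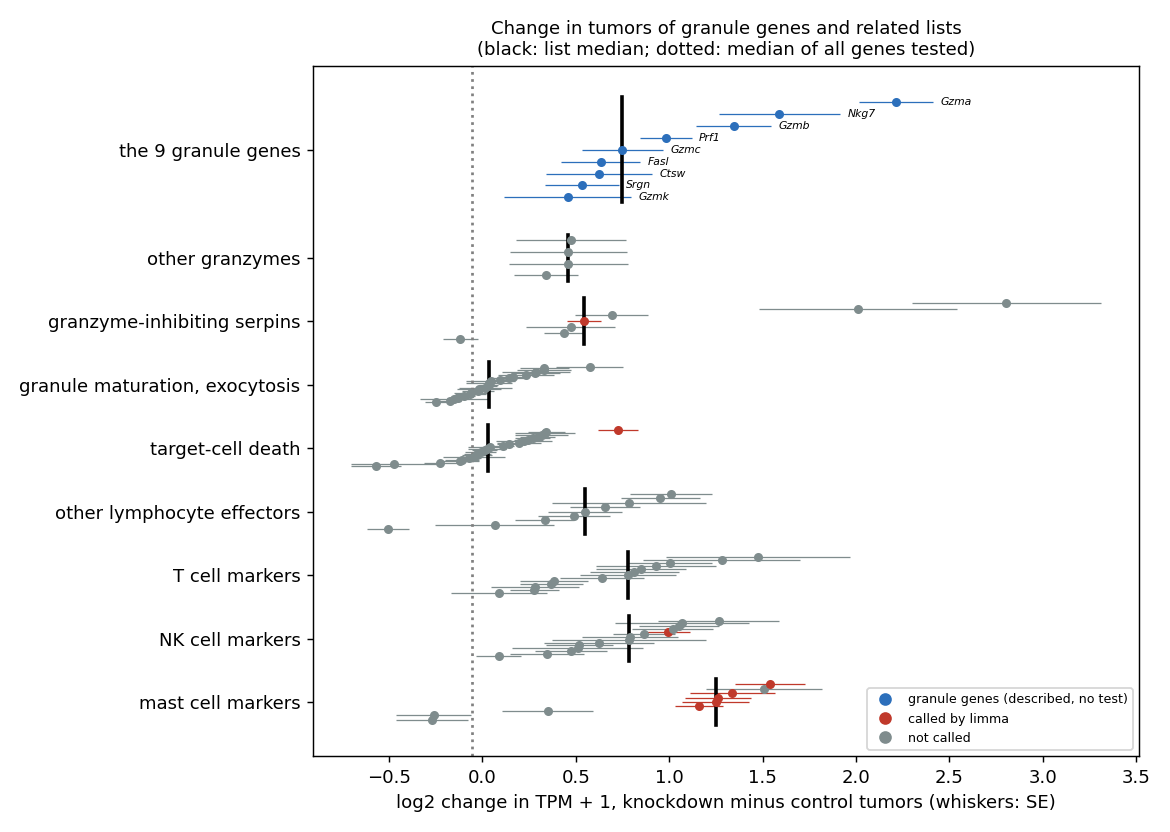
Log2 change in TPM + 1, knockdown minus control tumors, with its SE, for the 9 granule genes and 8 related lists. Black lines are list medians, and the dotted line is the median of all genes tested (-0.05). The granule genes are spread from 0.46 to 2.21, the granule maturation and target-cell death lists centre near 0, and called genes are in red.

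Genes that build and release granules had changes on both sides of 0. Of 23 genes of granule maturation and exocytosis tested in tumors (Vamp7 was not matched), limma called 0 higher and 0 lower, 5 had an unadjusted p under 0.05, and the median log2 change was 0.03. Both counts are near the shares of all genes, 1.51% and 18.7%. The 3 with the smallest p were Ctsl, a lysosomal cathepsin gene (log2 change -0.25, SE 0.0598, limma adjusted p = 0.101), Sytl3, a synaptotagmin-like gene of vesicle docking (0.57, SE 0.177, limma adjusted p = 0.158) and Lamp1, a lysosome membrane gene (-0.17, SE 0.0615, limma adjusted p = 0.203). Sytl3 passed the filter only through the knockdown tumors, with a control mean of 0.643 TPM. Ctsl was at 1695.49 to 1848.31 TPM in knockdown tumors and 1994.46 to 2238.03 TPM in control tumors, and it is a gene of nearly every cell type.

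Of 24 genes through which target cells die, limma called 1 higher, Trex1, and 0 lower, with a list median of 0.03. Over all genes tested, 1.51% were called in either direction. An unadjusted limma p under 0.05 was found for 7 of the 24 (18.7% of all genes tested). Every knockdown tumor was above every control tumor for 8 (9.81% of all genes tested) and below for 2. Trex1, an exonuclease of cytosolic DNA, was at 37.74, 30.70 and 32.45 TPM in knockdown tumors and 17.80, 20.40 and 21.59 TPM in control tumors (log2 change 0.73, SE 0.108, limma adjusted p = 0.0288). Its call was lost in 5 of 6 omissions of a library, kept without control tumor 1 alone, with log2 changes between 0.64 and 0.79. Igf2r, a receptor that has been described to take up granzyme B, was at 11.64 to 15.08 TPM in knockdown tumors and 17.68 to 22.16 TPM in control tumors (-0.57, SE 0.132, limma adjusted p = 0.0899).

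Of 7 tested serpins that inhibit granzymes or other proteases, limma called 1, Serpinb9, the mouse inhibitor of granzyme B. Separate and higher groups were found for 5 of the 7 (9.81% of all genes tested), of which Serpinb9b passed the filter only through the knockdown tumors. Serpinb9 was at 13.63, 12.71 and 14.00 TPM in knockdown tumors and 8.13, 9.19 and 9.42 TPM in control tumors (log2 change 0.54, SE 0.0926, limma adjusted p = 0.0447). Whichever of the 6 libraries was omitted, it was not called, at log2 changes of 0.49 to 0.58. Serpina3g was at 117.04, 105.97 and 96.48 TPM in knockdown tumors and 10.75, 35.68 and 42.68 TPM in control tumors (log2 change 2.01, SE 0.531, limma adjusted p = 0.151). Serpina3f was at 31.23, 30.18 and 23.48 TPM in knockdown tumors and 0.93, 4.44 and 5.87 TPM in control tumors (2.80, SE 0.508, limma adjusted p = 0.0807). Control tumor 1 was the lowest for both, and neither passed the threshold. The abundant Serpinb6a was at 374.95 to 417.41 TPM in knockdown tumors and 388.57 to 491.24 TPM in control tumors (log2 change -0.12, SE 0.0928), the 1 negative change of the 7.

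Of 9 tested further effector genes of lymphocytes, 0 were called by limma and 6 had an unadjusted p under 0.05, with a median of 0.55, but 2 of the 9, Ifng and Tnfsf10, passed the filter only through the knockdown tumors. Ifng, the interferon-gamma gene of activated T and NK cells, was at 2.61, 2.33 and 1.53 TPM in knockdown tumors and 0.33, 0.91 and 0.47 TPM in control tumors (log2 change 1.01, SE 0.218, limma adjusted p = 0.0799). Ccl5, a chemokine gene also expressed by these cells, was at 44.47, 38.93 and 48.45 TPM in knockdown tumors and 17.93, 19.26 and 31.31 TPM in control tumors (0.95, SE 0.211, limma adjusted p = 0.0899). Csf2 was at 25.29, 24.61 and 27.33 TPM in knockdown tumors and 31.68, 37.15 and 42.58 TPM in control tumors (-0.50, SE 0.113, limma adjusted p = 0.0867). Csf2 is also expressed by the cultured HM1 cells, at 30.08, 31.11 and 33.01 TPM with the knockdown and 38.59, 36.98 and 38.25 TPM with the control hairpin.

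For each granule gene the 3 genes with the closest profile over the 6 tumors were found among 11699 candidates by the root mean square distance of centred log2 values. The smallest distance was that of Fasl to Parp10 (0.0319), and Prf1 was closest to Casp12 (0.0724), Ifi211 (0.0767) and Ifi204 (0.0955). The closest to Gzmb were Samd9l (0.151), Ifit1 (0.179) and Ifi203 (0.193), and to Gzma Gvin-ps7 (0.242), Gvin2 (0.251) and Gbp10 (0.268). Gzmk was closest to Lat (0.114), Ctsw to Gimap3 (0.0889), Nkg7 to Gvin1 (0.150), Srgn to Clec4e (0.0655) and Gzmc to Casp4 (0.162). Gzma itself varied around its own mean by 1.13 and Fasl by 0.363 on the same scale, so distances of genes that vary little are small for that reason too.

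In cultures almost none of the 9 genes was found. Nkg7 was listed at 0 in all 6 libraries, and Gzma, Gzmb, Gzmc and Prf1 did not exceed 0.09 TPM in any. Gzmk was at 0.30, 0.09 and 0.31 TPM in knockdown cultures and 0.16, 0.27 and 0.29 TPM in control cultures. Srgn was at 0.13, 0.08 and 0.42 TPM in knockdown cultures and 0.00, 0.23 and 0.12 TPM in control cultures, although it led the order in tumors. Fasl was at 0.33, 0.03 and 0.00 TPM in knockdown cultures and 0.03, 0.00 and 0.61 TPM in control cultures. Cd3e, Cd4, Klrd1 and Ncr1 were listed at 0 in all 6 cultures. Cultures and tumors were tabulated separately, so these levels are described and not compared by a test.

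Ctsw was the only granule gene that passed the filter in cultures. It was at 1.39, 1.57 and 1.25 TPM in knockdown cultures and at 1.38, 1.81 and 0.85 TPM in control cultures, with overlapping groups. The means were 1.40 ± 0.160 TPM in knockdown cultures and 1.35 ± 0.481 TPM in control cultures (SD, n = 3 each), and the log2 change was 0.05 (SE 0.231, limma adjusted p = 0.9999). This contrast took no part in the selection, and the gene was not called, nor did it have an unadjusted p under 0.05. Of 13492 genes tested in cultures, 4 (0.0296%) were called by limma.

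Among the other granzymes, 2 passed the filter in cultures, Gzme and Gzmd. Gzme was at 28.21, 39.19 and 27.83 TPM in knockdown cultures and 27.42, 28.00 and 34.85 TPM in control cultures. The groups overlapped (log2 change 0.07, SE 0.159, limma adjusted p = 0.9999). Gzmd was at 1.08, 1.65 and 0.94 TPM in knockdown cultures and 0.86, 0.59 and 0.86 TPM in control cultures, separate but not called (0.32, SE 0.243, limma adjusted p = 0.9999). It passed the filter only through the knockdown cultures, since its control mean was 0.77 TPM, so no conclusion is drawn from that separation. Gzmf and Gzmg did not exceed 0.27 TPM. Gzmb and Gzmc, which lie in the same cluster, were thus near 0 in cells in which their neighbours Gzme and Mcpt8 were expressed. In tumors, Gzme transcripts of HM1 cells and of host cells cannot be told apart.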

How the data were processed

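The authors deposited 1 table per sample with TPM, a length-corrected share of transcripts, per the file headers. Tools named in the submitters' processing notes are RSEM, HISAT and fastp, and the build is GRCm39, without versions or roles. RSEM shares reads among similar genes, so near copies are uncertain; the sources used here do not tell whether counting used strand. Depth is unknown.

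A count test had been planned if the tables held counts; they hold TPM, so limma 3.58.1 (R 4.3.3) was used, with robust empirical Bayes moderation and a mean trend on log2 values of the deposited TPM + 1, for genes that averaged 1 TPM or more in either group, per tissue, two-sided, with Benjamini-Hochberg adjustment over all genes and a threshold of 0.05. Every p comes from limma. The same fit was also run on simulated data with known changes, whose outcome is not given here. Groups come from the sample titles.

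The genes, lists and rule for named genes were chosen with earlier results of these data known. The rule names the 9 genes, the other granzymes, the serpins, called genes of each list or the 3 with the smallest p, common markers, and 3 nearest profiles per gene. Some genes are in several lists. Not every gene named by the rule is described. Sequences come from RefSeq GRCm38.p6 windows, and identities from global alignment of GENCODE M21 reading frames. Alternatives were the pseudocount, filter, scaling, replicate block, left-out libraries and a fit of all 4 groups. Plots used matplotlib 3.10.9 (Python 3.11.15).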

Additional observations from a re-analysis of the deposited data

How the results depend on the processing

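In tumors, 225 genes were called, and this number was 82 with no filter, 2 with the replicate block, 116 with no trend and no robust step, 72 with knockdown tumors 1 and 3 left out and 599 with all 4 groups in one fit. Leaving out 1 library each gave 38 to 229. Of the 9 granule genes 3 were called, against 1 with no filter, 0 with the replicate block, 1 with no trend and no robust step, 2 with median-of-ratios scaling (Gzmb not called), 5 in the fit of all 4 groups and 1 to 3 without 1 library. Their changes stayed positive in every tumor setting tested. In cultures 4 genes were called, against 11 with a pseudocount of 0.1, 8 with 1 TPM required in 3 libraries, 8 with all 4 groups and 7 to 15 without 1 library. Whether the number of a replicate pairs the samples is not known. The correlations of same-numbered deviations were -0.144, -0.0169 and 0.0489 in tumors and -0.0597, -0.0651 and -0.155 in cultures. Those of different-numbered deviations were -0.142 to 0.149 in tumors and -0.093 to 0.151 in cultures. These values show no pairing by number but are too weak to exclude it, so no conclusion is drawn from the block result. Loss of calls there was not traced; the cause was not tested. The depth is unknown, and genes under 1 TPM, such as Fasl and Gzmk in control tumors, are described by few transcripts.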
